A study of Mus musculus with 5 samples.

Results

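The cells described here are conventional CD4 T cells whose T cell receptor clonotype was found in no other beta chain barcode of the same library, taken from mice that carried the CT26 colon carcinoma line. A barcode was a member if it held at least 1 UMI (a count of 1 captured RNA molecule) of Cd4 and at least 1 of Cd3e, Cd3d or Cd3g, none of Cd8a, Cd8b1 or Foxp3, and fewer than 2 of the cycling genes Mki67, Top2a and Birc5. It also needed at least 200 genes, at most 15% mitochondrial UMIs, and a T cell receptor beta (TRB) contig in a clonotype that no other barcode with a beta chain held. The cells were thus chosen by their Cd4, Cd8a, Cd8b1, Foxp3, Cd3 and cycling gene counts and by clone size, and by no other gene. The rule found 329 members among the 9565 barcodes that passed the gene and mitochondrial limits, 294 in the aCTLA4 library and 35 in the control library. In both groups BALB/c mice of 6 weeks received CT26 cells under the skin, and material was taken on day 13. The aCTLA4 group was given 100 µg of the anti-CTLA-4 antibody clone 9H10 into the peritoneum on days 5, 8 and 11, and the control group was given PBS. Each group is 1 droplet library of 5′ gene expression with its receptor library, and the labels do not say how many mice were pooled. They call the material only tissue. A kit for mouse tumours was used to dissociate it, and no sort for T cells is named.

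Conventional CD4 T cells are the helper arm of adaptive immunity and recognise peptides on MHC class II through a receptor whose alpha and beta chains are joined anew in each precursor. A cell that has not met its antigen keeps the homing receptors and transcription factors of the naive state and circulates through lymph nodes, whereas an activated cell divides, so that its receptor is found in several cells, and takes up effector or memory genes. CTLA-4 is an inhibitory receptor that competes with CD28 for its ligands, and antibodies to it are given in cancer to release T cell activation. A clonotype seen in 1 barcode can be a naive cell or 1 sampled cell of a larger clone.

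The aCTLA4 library held 4186 barcodes with a median of 3147.5 UMIs, and the control library held 5649 barcodes with a median of 6827 UMIs. Of the 9835 barcodes, 20 occurred in both libraries. They include 3 aCTLA4 members and no control member. Members were shallower in the control library, with a median of 3509 UMIs (1120 to 22485) in 294 aCTLA4 cells and 2303 UMIs (1084 to 9543) in 35 control cells. The members sum to 1244613 UMIs in the aCTLA4 library and 103439 UMIs in the control library, so that the smaller sum limits every comparison between treatments. UMIs of tumour-like marker genes differed as well. Crabp1, Krt20, Krt8 and Krt18, which mark the tumour-like cells of the series, summed to 3.21 CPM (UMIs of the genes per 1000000 UMIs summed over the cells) in aCTLA4 members and 619 CPM in control members, which is 0.0638% and 12.3% of their level in 3220 control barcodes without a Ptprc UMI. The reference is the control library for both, so the aCTLA4 value is not set against tumour cells of its own library. At least 2 UMIs of these genes lay in 1 of 294 aCTLA4 members and in 8 of 35 control members. Whether these UMIs are free RNA or come from barcodes that hold more than 1 cell was not tested. Free RNA of other cells is not covered by these genes. Macrophage marker UMIs were absent from 255 of 294 aCTLA4 and 30 of 35 control members, and plasma cell marker UMIs from 261 and 35. With 1 library per treatment no difference has a replicate check and no test is given. All intervals are exact 95% intervals that cover counting error only.

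The label was set beside Lef1 and Tcf7, transcription factors of naive and memory T cells that the rule did not use. A UMI of either was found in 228 of 294 aCTLA4 members and in 19 of 35 control members. In macrophages, which should lack both, Lef1 was found in 1 of 145 cells at a median of 4362 UMIs, and Tcf7 in 3. The rule asks for Cd3 UMIs and a beta chain, which fixed that contrast with macrophages in advance. Lef1 was also found in 13 and Tcf7 in 7 of 49 aCTLA4 regulatory T cells, and ratios to CD8 T cells are given below. These genes therefore do not tell conventional CD4 T cells from other T cells. In aCTLA4 members 2 or more UMIs of B cell markers were found in 2, of macrophage markers in 10 and of neutrophil markers in 4 cells. In control members the numbers were 0, 3 and 0 of 35. Endothelial marker UMIs were absent from 227 of 294 aCTLA4 and 30 of 35 control members, and fibroblast marker UMIs from 261 and 29. Regulatory T marker UMIs were absent from 233 and 27. The conventional CD4 label of all members rests on the genes and the beta chain of the rule.

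Receptor sequences come first, since the beta chain decides membership. All 294 aCTLA4 members held different beta CDR3 nucleotide sequences. The rule largely sets this in advance, since a member's clonotype holds no other barcode with a beta chain. Under that rule 4 of 329 members still shared a beta chain with another barcode of their own library. A beta chain was shared with a barcode of the other library by 1 member, and 6 shared the beta CDR3 protein through other nucleotides. The largest of these groups is shown because it joins unexpanded members, an expanded clone and the control library. It uses TRBV10 with TRBJ2-5 (chromosome 6) and TRAV4-3 with TRAJ18 (chromosome 14). The sequences run 5′ to 3′ over the CDR3, 42 bases for beta and 45 for alpha, and capitals mark bases that differ from the first sequence of the chain. All beta chains of the set encode the same CDR3 protein.
Member 1, beta: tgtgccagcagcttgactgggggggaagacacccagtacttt
Member 2, beta: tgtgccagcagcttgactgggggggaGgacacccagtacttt
Member 1, alpha: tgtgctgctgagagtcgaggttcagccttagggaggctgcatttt
Member 2, alpha: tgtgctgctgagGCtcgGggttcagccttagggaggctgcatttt
Clone of 3 cells, alpha: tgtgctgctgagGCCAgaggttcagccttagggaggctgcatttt
Control cell, alpha: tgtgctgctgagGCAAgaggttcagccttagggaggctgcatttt

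The clone of 3 cells and the control cell carry the beta chain of the first member without a difference. Their alpha chains differ from that member's at 4 bases each, and the second member's alpha differs at 3. Neither member held a Cxcr6 UMI, at 4103 and 5271 UMIs per cell. The 3 cells of the expanded clone held 13, 16 and 19 Cxcr6 UMIs, and the first of them was outside the conventional class because it held 5 Mki67, 5 Top2a and 1 Birc5 UMIs. The control cell held 3 Foxp3 and 10 Cd8b1 UMIs and is no member. Cells of 1 receptor set therefore fell on both sides of the limit on clone size, and their Cxcr6 counts differed.

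A second set used TRBV13-1 with TRBJ1-4 and is shown because a member has the very beta chain of an expanded clone. That clone of 2 cells pairs it with a TRAV4-3 alpha chain, whereas the member has a TRAV13-1 alpha chain. A further clone of 2 cells encodes the same beta CDR3 protein with 3 other bases, in capitals.
Member and first clone, beta: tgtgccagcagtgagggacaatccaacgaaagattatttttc
Second clone, beta: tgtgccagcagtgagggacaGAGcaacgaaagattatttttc

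The member of this set held 3 Cxcr6 and 5 Icos UMIs among 1658, and the 2 cells of the first clone held 5 and 4 Cxcr6 UMIs. In 2 more cases a member matched another barcode in both chains and was still deposited as a clonotype of its own. A TRBV29 member matched 2 cells of a clone of 3, whose other cell is listed with another alpha chain, and a TRBV1 member matched 1 cell outside the class. Across all members with an alpha chain, 10 of 251 belonged to 7 groups of clonotypes that share alpha V and J and beta V and J genes.

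The values that chose the members are given here without a test. Exactly 1 Cd4 UMI was found in 171 of 294 aCTLA4 members and in 25 of 35 control members, so most cells lie at that limit. Just outside it were 372 unexpanded T cells of the aCTLA4 library and 113 of the control library with no Cd4 or Cd8 UMI. Unexpanded Cd4 cells with a Foxp3 UMI numbered 30 and 12, and those with 2 or more cycling UMIs 6 and 0. Just outside the limit on clone size were 43 aCTLA4 and 3 control cells in clonotypes of 2. Their genes are set beside those of the members below.

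Unexpanded clonotypes made up 71.5% (66.9% to 75.8%) of 411 conventional CD4 T cells with a beta chain in the aCTLA4 library and 92.1% (78.6% to 98.3%) of 38 in the control library. A beta chain was found for 75.1% of 547 and for 73.1% of 52 conventional CD4 T cells. A share of unexpanded cells falls as more cells are sampled, and the aCTLA4 library held 1529 cells with a beta chain against 282 in the control library. Drawn down to 282 cells, the expected share was 88.4% in the aCTLA4 library against 92.1% in the control library, which lies inside the control interval. For CD8 T cells the same shares were 59.8% of 508 in the aCTLA4 library and 92.0% of 50 in the control library, and 72.6% in the aCTLA4 library at the drawn number.

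Among aCTLA4 members, naive and effector genes tended to lie in separate cells, with some overlap. Cxcr6, a chemokine receptor of tissue T cells (GRCm38 chromosome 9, 123806475 to 123811760), was found in 94 of 294 members, or 32.0% (26.7% to 37.6%). Ccr7, which guides T cells into lymph nodes, was found in 174 of 294, of which 16 held Cxcr6 and 158 did not. Lef1 was found in 32 members with and 152 without a Cxcr6 UMI. In the control library Cxcr6 was found in 12 of 35 members and Ccr7 in 17. Splitting the members by Cxcr6 was chosen after these values were seen, and everything below that follows the split is a description of cells within 1 library.

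**Figure D1:**
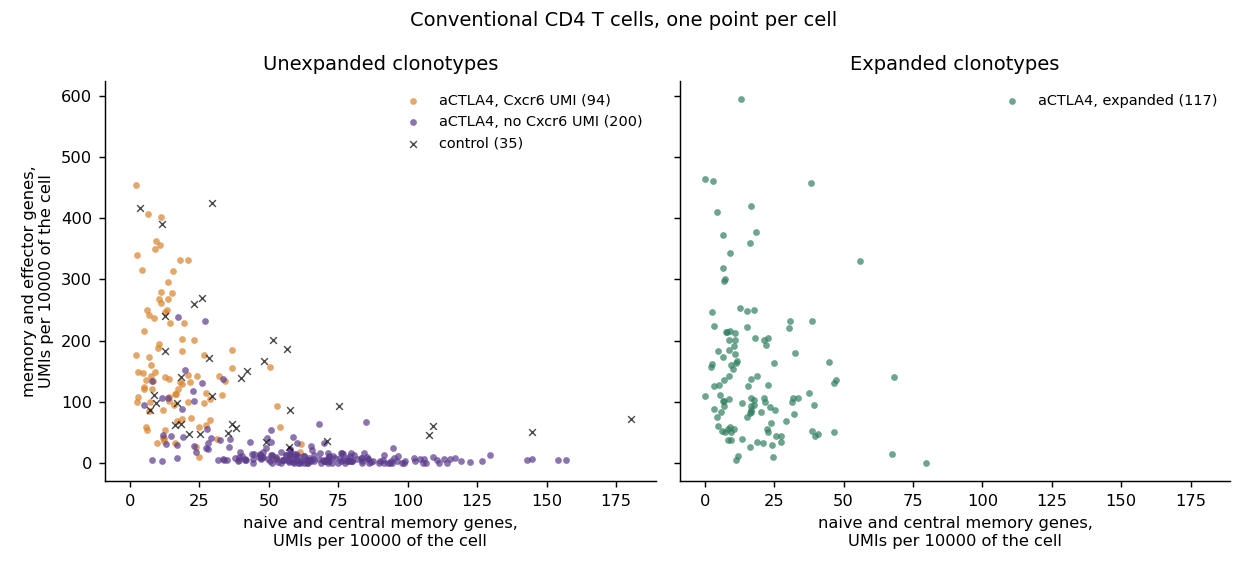
Each point is 1 conventional CD4 T cell, unexpanded on the left and expanded on the right, with the summed UMIs of the naive and central memory list on the x axis and of the memory and effector list on the y axis, both per 10000 UMIs of the cell. Most aCTLA4 members without a Cxcr6 UMI (200 cells) lie along the x axis, and most with one (94 cells) lie along the y axis, where most of the 117 expanded cells lie too. The lowest control member lies at 27.1 on the y axis, and 27 aCTLA4 members lie at 0 there. No free RNA was subtracted, and the list of the y axis holds Vim and S100a6, which were abundant in control barcodes without a Ptprc UMI. The part of free RNA in these single-cell values was not tested.

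The 94 Cxcr6-positive members had a median of 4673 UMIs and the 200 Cxcr6-negative members 3127.5, so shares are given as the expectation at 1000 UMIs per cell. Klf2, a transcription factor of T cell quiescence and trafficking (chromosome 8, 72319033 to 72321656), would be seen in 7.79% of Cxcr6-positive and 46.8% of Cxcr6-negative members at that depth. Unthinned, it was found in 19 of 94 and 149 of 200 cells. Ccr7 was seen in 9.65% and 54.3%, and S1pr1, the receptor for exit into blood and lymph, in 4.97% and 30.3%. Lef1 stood at 12.5% and 40.8%. Macrophages gave 9.28% for Klf2, 1.74% for Ccr7, 2.36% for S1pr1 and 0.204% for Lef1 at the same number of UMIs. Macrophages held Klf2 UMIs in 30 of 145 cells and so give no level of free RNA for it.

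Rflnb, Trib2 and Igfbp4 followed the same split. Rflnb, which encodes refilin B, was expected in 2.34% of Cxcr6-positive and 36.1% of Cxcr6-negative members, Trib2, a pseudokinase, in 1.33% and 23.1%, and Igfbp4, an insulin-like growth factor binding protein, in 0.436% and 18.2%. Macrophages gave 0.454%, 0.161% and 9.93% for these genes. Igfbp4 UMIs were found in 33 of 145 macrophages, so they give no level of free RNA for that gene. Of the naive and central memory list, 14 of 15 members with at least 50 UMIs were lower past 1.5-fold in Cxcr6-positive cells and none was higher, with a median log2 ratio of -1.88. In all, 25.3% of 3372 genes were higher and 13.9% lower past that limit (39.2% either way), with a median of 0.16.

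The other side held genes of activated and tissue T cells. All 16 measured genes of the memory and effector list were higher past 1.5-fold in Cxcr6-positive members, with a median log2 ratio of 2.49, and the list's sum was 14939 CPM in Cxcr6-positive and 2629 CPM in Cxcr6-negative cells. Bhlhe40, a transcription factor of effector and resident T cells, was expected in 46.1% and 3.90% of cells. Rora, a nuclear receptor, was expected in 38.8% and 7.56%, and Icos, the inducible costimulator, in 47.3% and 14.3%. Macrophages gave 16.8%, 2.71% and 0.392% for these 3 genes. S100a4 and Ifitm2 were expected in 45.5% and 64.4% of Cxcr6-positive members and in 1.69% and 2.53% of Cxcr6-negative members. Both are abundant in macrophages as well, at 26.8% and 59.2%.

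Several genes were close to absent from Cxcr6-negative members. Il1r2, the decoy receptor for interleukin 1, had 297 UMIs in 36 Cxcr6-positive cells and 5 UMIs in 3 Cxcr6-negative cells, a ratio of 87.9 (37.2 to 273). Serpinb1a, an inhibitor of neutrophil serine proteases (chromosome 13, 32842092 to 32851185), had 215 UMIs in 46 cells and 6 UMIs in 3 cells, a ratio of 53.0 (23.96 to 146). Klrc1, which encodes the lectin-like receptor NKG2A, had 119 UMIs in 31 cells and 2 UMIs in 1 cell. Csf2, the cytokine GM-CSF, had 535 UMIs in 21 Cxcr6-positive cells and none in 200 Cxcr6-negative cells, which allows a share of cells with a UMI of up to 1.5%. Of the genes lower in Cxcr6-positive members, Cd27, a costimulatory receptor of naive and memory T cells, had 12 UMIs in 9 cells and 171 UMIs in 87 cells, a ratio of 0.104 (0.0526 to 0.186). Il1r2, Serpinb1a, Klrc1, Csf2 and Cd27 stood out among all genes here and were named after their values were seen.

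Checkpoint and costimulatory receptors also differed between the 2 sides. Cd40lg, the ligand by which helper T cells signal to B and dendritic cells, was expected in 21.9% of Cxcr6-positive and 3.34% of Cxcr6-negative members. Ctla4, whose product the antibody binds, was expected in 15.5% and 6.97%, Pdcd1, which encodes PD-1, in 12.3% and 2.39%, and Tigit in 29.4% and 8.53%. Members with an Il2ra or Ikzf2 UMI also differed between the sides, since 39 of those 61 held Cxcr6, against 55 of the other 233. Of 8 measured genes of the regulatory list, 6 were higher in Cxcr6-positive members and none was lower, and the part of regulatory cells in which Foxp3 was not detected was not tested. None of the 145 macrophages held a UMI of Cd40lg, Ctla4, Pdcd1 or Tigit, which allows up to 2.07% of cells. Cxcr3, the receptor for the interferon-induced chemokines, was expected in 12.0% and 0.746%, and in 0.265% of macrophages. Of the hypoxia and glycolysis list, 13 of 15 genes were higher in Cxcr6-positive cells and none was lower, with a median log2 ratio of 1.28, and 8 of 9 genes of the Th1 list were higher, with a median of 3.42.

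Cells in clonotypes of 2 (43) and of 3 or more (74) are given beside the members at the same 1000 UMIs. Klf2 was expected in 10.6% of cells in clonotypes of 2 and 4.28% of cells in larger ones, Bhlhe40 in 49.2% and 47.5%, Icos in 58.0% and 53.0% and Serpinb1a in 31.0% and 29.2%. For these genes the values of expanded cells lay nearer to those of Cxcr6-positive members, which were 7.79%, 46.1%, 47.3% and 26.6%, than to those of Cxcr6-negative members. The inhibitory receptor list summed to 922 CPM in Cxcr6-positive members, 470 CPM in Cxcr6-negative members, 1227 CPM in clonotypes of 2 and 1740 CPM in larger clonotypes. Pdcd1 was expected in 14.4% of cells in clonotypes of 2 and 27.8% of cells in larger ones, against 12.3% of Cxcr6-positive members. Tigit was expected in 33.9% and 37.5%, against 29.4%.

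**Figure D2:**
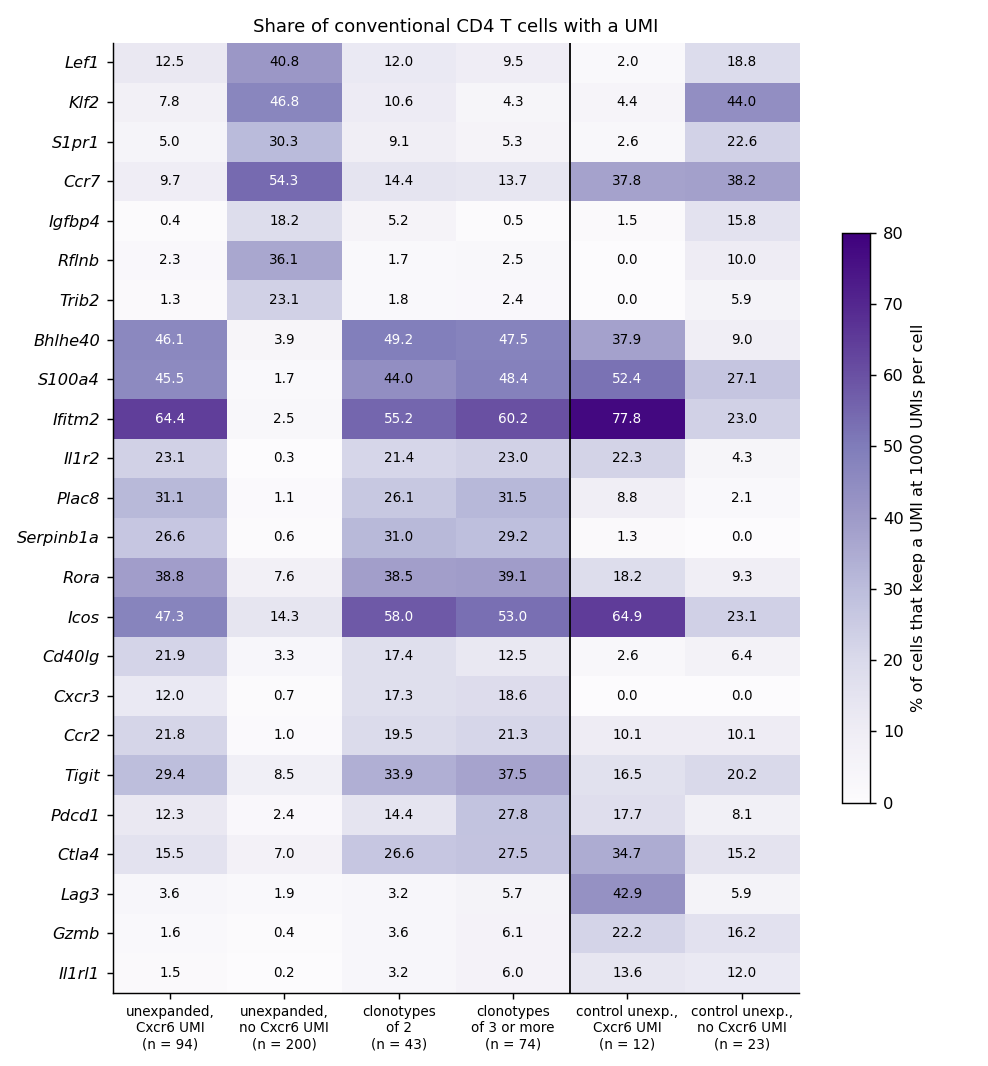
Colour and printed value give the percentage of cells expected to keep a UMI of each gene (rows) at 1000 UMIs per cell, in 4 sets of aCTLA4 cells and, right of the line, 2 sets of control members. Lef1, Klf2, Ccr7 and Rflnb are highest in Cxcr6-negative aCTLA4 members, and Bhlhe40, Icos, Rora and Serpinb1a are high in Cxcr6-positive members and in both sets of expanded cells.

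Few members held most of the cytokine UMIs. Il4, Il5 or Il13, the type 2 cytokines, were found in 10 of 294 aCTLA4 members, or 3.40% (1.64% to 6.17%), and in 0 of 35 control members, which allows up to 8.57%. All 10 cells held Cxcr6 UMIs, and 8 held Gata3, the transcription factor of type 2 helper cells. Il13 (chromosome 11, 53631324 to 53634702) had 837 UMIs in 7 cells, of which 1 cell held 429. Il4 had 224 UMIs in 5 cells, of which the same cell held 189, and Il5 had 105 UMIs in 4 cells. Expanded cells held 10 Il13 UMIs in 2 of 117 cells, 1 Il5 UMI and no Il4 UMI. Most of these UMIs lay in the 61 members with a UMI of Il2ra or Ikzf2, genes that regulatory T cells also express. Those members held 815 of the Il13, 223 of the Il4 and 101 of the Il5 UMIs, and 0 Foxp3 UMIs by the rule.

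Ifng, the type 1 cytokine, had 89 UMIs in 13 aCTLA4 members, 58 of them in 1 cell, and none in control members. Il2 had 32 UMIs in 3 cells, 29 of them in 1 cell. Il17a, the cytokine of type 17 cells, had no UMI in any unexpanded or expanded conventional CD4 T cell of the aCTLA4 library. That allows a UMI in up to 1.02% of 294 unexpanded and 2.56% of 117 expanded cells. Cxcr5 had 5 UMIs in 5 of 294 and Il21 2 UMIs in 1 of 294 aCTLA4 members. The follicular helper factor Bcl6 had 44 UMIs in 37 cells.

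Unexpanded cells of the aCTLA4 library were then compared with the 117 expanded conventional CD4 T cells of that library (57 clonotypes, the largest of 10 cells), which differ in the rule only by clone size. Naive and central memory genes were higher in unexpanded cells, and effector, cytotoxic and checkpoint genes were lower. Of all 4529 genes with at least 50 UMIs, 10.3% were higher and 14.1% lower past 1.5-fold (24.4% either way), with a median log2 ratio of -0.10. Unexpanded cells had a median of 3509 UMIs and expanded cells 4335 UMIs. With every cell thinned to 1000 UMIs, 132 genes were higher and 275 lower past 1.5-fold, in place of 466 and 637, and fewer genes then reach 50 UMIs.

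Of the naive and central memory list, 12 of 15 genes were higher and none lower, with a median log2 ratio of 1.45. Klf2 had 615 UMIs in 168 of 294 unexpanded cells and 54 UMIs in 18 of 117 expanded cells, at 494 CPM in unexpanded and 97.5 CPM in expanded cells, a ratio of 5.07 (3.83 to 6.83). S1pr1 had a ratio of 3.18 (2.27 to 4.57), Lef1 of 3.04 (2.35 to 3.98), and Ccr7 of 2.15 (1.84 to 2.52), while Tcf7 reached 1.72 (1.34 to 2.24). With at least 2 Cd4 UMIs the log2 ratio of Tcf7 was 0.094 in place of 0.79. Il7r, which encodes the interleukin 7 receptor that sustains resting T cells, stayed within 1.5-fold at 1.47 (1.18 to 1.84). The intervals of Klf2 and S1pr1 lay above those of Tcf7 and Il7r, and that of Ccr7 overlapped Tcf7.

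Genes outside that list were among the highest ratios. Rflnb had 305 CPM in unexpanded and 23.5 CPM in expanded cells, a ratio of 13.0 (7.497 to 24.6), and Trib2 a ratio of 10.8 (5.37 to 25.4). Il6st and Il6ra, the signalling and binding chains of the interleukin 6 receptor, had 66 and 59 UMIs in 48 and 45 unexpanded cells and 1 UMI each in expanded cells, which gives ratios of 29.4 (5.09 to 1178) and 26.3 (4.53 to 1055). Cd55, which shields cells from complement, had 68 UMIs and 1 UMI. Ifngr2, a chain of the interferon gamma receptor, had 95 UMIs in 73 unexpanded cells and 3 UMIs in 1 expanded cell, a ratio of 14.1 (4.68 to 69.6). Of the type I interferon list, 9 of 13 genes were higher and 1 was lower, with a median log2 ratio of 0.62. Isg15, a ubiquitin-like interferon product, had a ratio of 2.27 (1.68 to 3.12).

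**Figure D3:**
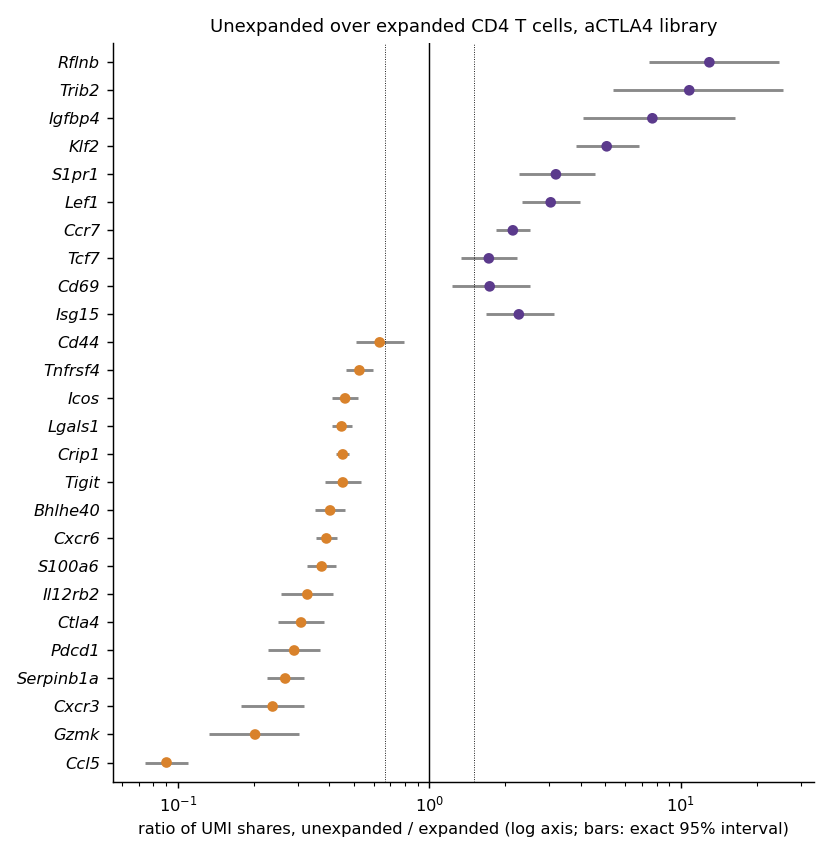
Points give the ratio of UMI shares of unexpanded over expanded conventional CD4 T cells in the aCTLA4 library on a log axis, bars give the exact 95% interval, and dotted lines mark 1.5-fold either way. Ratios run from 13.0 for Rflnb and 10.8 for Trib2 at the right to 0.0902 for Ccl5 at the left.

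Effector genes were lower in unexpanded cells. Of the memory and effector list, 13 of 16 genes were lower and none higher, with a median log2 ratio of -0.94. Cxcr6 stood at 632 CPM in unexpanded and 1623 CPM in expanded cells, with UMIs in 32.0% and 88.0% of cells. Cxcr3 had a ratio of 0.238 (0.178 to 0.317), Il12rb2, a chain of the interleukin 12 receptor, 0.327 (0.258 to 0.415), and Ccr2, a monocyte and effector T cell chemokine receptor, 0.348 (0.274 to 0.443). Of the Th1 list 7 of 11 genes were lower and 1, Tnf, was higher. Serpinb1a had a ratio of 0.267 (0.225 to 0.317). The survival genes Bcl2a1b and Bcl2a1d had ratios of 0.449 and 0.466, and Bcl2 was higher past 1.5-fold.

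Checkpoint and cytotoxic genes were lower as well. Of the inhibitory receptor list, 6 of 8 were lower and none higher, with a median log2 ratio of -0.96. Pdcd1 stood at 94.8 CPM in unexpanded and 327 CPM in expanded cells, a ratio of 0.290 (0.228 to 0.368), Ctla4 at 128 and 413 CPM, a ratio of 0.309 (0.251 to 0.380), and Tigit at 234 and 516 CPM, a ratio of 0.453 (0.383 to 0.535). Of the costimulation list 8 of 11 were lower, among them Icos (0.462) and Tnfrsf4 (0.527), which encodes OX40, and Cd27 was higher. With at least 2 Cd4 UMIs Tnfrsf4 was within 1.5-fold, at a log2 ratio of -0.51. Of 10 cytotoxicity genes 9 were lower and Ccl4 was higher, with 91 UMIs in 6 unexpanded cells, 65 of them in 1 cell, and none in expanded cells. Ccl5, a chemokine of effector T cells (chromosome 11, 83525778 to 83530518), had the lowest ratio, 0.0902 (0.0738 to 0.109). It had 125 UMIs in unexpanded cells, 98 of them in 1 cell, and 617 in expanded cells, and its log2 ratio was -5.18 without the highest cell of each group. Gzmk, a granzyme of memory T cells, had a ratio of 0.203 (0.133 to 0.304).

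Other lists differed less or held single cells. Of the regulatory list 7 of 11 genes were lower and 2, Il2ra and Ikzf2, were higher. Of the T cell receptor response list 5 of 11 were higher and 3 lower, of the follicular helper list 3 of 11 and 4, of the tissue residency list 1 of 10 and 4, and of the Th2 list 4 of 8 and 2. Cst3, an inhibitor of cysteine proteases that is abundant in myeloid cells, had a ratio of 0.266, but 1 expanded cell held most of its UMIs and its log2 ratio was -0.21 without the highest cell of each group. The neutrophil genes S100a8 and S100a9 summed to 293 UMIs in unexpanded and 3 UMIs in expanded cells, with 200 of 237 S100a9 UMIs in 1 cell. Of the hypoxia and glycolysis list 4 of 15 genes were lower and none higher. Of the heat stress list 5 of 16 were higher and none lower, and Zfp36, an RNA decay factor induced on handling and activation, had a ratio of 3.89 (2.82 to 5.49). The part of handling in these values was not tested.

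Between treatments, aCTLA4 members had more Lef1 and Foxp1 and less Lag3, Gzmb and Ctla4 than control members, as shares of all UMIs. Of other naive genes, Tcf7, Il7r and Klf2 stayed within 1.5-fold and Ccr7 was lower. Cxcr3 was found in aCTLA4 members only, but its bound past 1.5-fold was lost under some settings given below. Of 3563 genes with at least 50 UMIs over both sums, 28.8% were higher and 12.8% lower past 1.5-fold (41.6% either way), with a median log2 ratio of 0.16. The control sum comes from 35 cells, and a single cell often carried a gene. The share of UMIs from tumour-like marker genes was larger in the control members, as given above. Cells with a UMI are given beside the sums for the genes on which the comparison turns.

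Of the naive and central memory list, 8 of 15 genes were higher in aCTLA4 members and 1, Ccr7, was lower, with a median log2 ratio of 0.68. Lef1 (chromosome 3, 131110471 to 131224356) had 457 UMIs in 184 of 294 aCTLA4 members and 10 UMIs in 9 of 35 control members, at 367 and 96.7 CPM, a ratio of 3.80 (2.05 to 7.97). Foxp1, a factor of T cell quiescence, had a ratio of 4.18 (1.90 to 11.5). Tcf7, Il7r and Klf2 stayed within 1.5-fold at 0.837, 0.935 and 1.25, and Ccr7 had 0.487 (0.411 to 0.579). The Ccr7 difference lies in its UMI sum and not in the cells that hold it. Ccr7 was found in 174 of 294 aCTLA4 members (59.2%) and 17 of 35 control members (48.6%), or 40.0% and 38.1% as shares expected at 1000 UMIs.

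Single cells were set side by side by their shares of 2 lists, with no free RNA subtracted. The naive and central memory list took a median of 50.4 UMIs per 10000 in aCTLA4 members and 29.6 in control members. The memory and effector list took a median of 14.7 UMIs per 10000 in aCTLA4 members, with quartiles of 5.39 and 102, and of 97.5 in control members, whose lowest cell had 27.1. The 2 libraries overlapped in both lists. Of the memory and effector list, 9 of 16 genes were lower in aCTLA4 members and 2 were higher, with a median log2 ratio of -0.64. Among the lower ones, S100a6 stood at 334 CPM in aCTLA4 and 2214 CPM in control members and Vim at 890 and 4370 CPM, against 9388 and 10537 CPM in the control barcodes without Ptprc. With that profile subtracted from the control sum, an alternative chosen after the data were seen, their log2 ratios were -1.84 and -1.96 in place of -2.73 and -2.30. Without members with an Il2ra or Ikzf2 UMI that of Vim was -1.20.

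Checkpoint genes were lower in aCTLA4 members. Of the measured inhibitory receptor genes 5 of 6 were lower and none higher, with a median log2 ratio of -1.66. Lag3, an inhibitory receptor for MHC class II, had 65 UMIs in 23 of 294 aCTLA4 members and 57 UMIs in 9 of 35 control members, a ratio of 0.0948 (0.0654 to 0.138), and its log2 ratio was -3.56 without the highest cell of each group. Ctla4 had 159 UMIs in 70 aCTLA4 members and 90 UMIs in 14 control members, a ratio of 0.147 (0.113 to 0.192). One control cell held 61 of those 90, and the log2 ratio was -2.77 with all cells and -1.26 without the highest cell of each group. It was -1.22 without members with an Il2ra or Ikzf2 UMI and -1.13 without cells that held markers of other classes or 2 beta chains. Pdcd1 had 94.8 CPM in aCTLA4 and 261 CPM in control members, a ratio of 0.363 (0.237 to 0.574), with 27 UMIs in 6 control cells. Without the members with an Il2ra or Ikzf2 UMI it had 41.3 CPM in aCTLA4 and 272 CPM in control members, a log2 ratio of -2.72 in place of -1.46. Tigit stayed within 1.5-fold at 0.967 (0.642 to 1.52).

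Gzmb, the cytotoxic protease granzyme B (chromosome 14, 56258838 to 56262260), had 12 UMIs in 4 of 294 aCTLA4 members and 99 UMIs in 7 of 35 control members, a ratio of 0.0101 (0.00504 to 0.0184). Of the control UMIs 90 lay in the 8 members with an Il2ra or Ikzf2 UMI, and 48 in 1 cell. Without such members in either library the log2 ratio was -4.27, against -6.63 with them. Those 8 control cells also held 71 of the 90 Ctla4 UMIs and 48 of the 50 Areg UMIs. Areg, a growth factor made by regulatory and type 2 cells, had 11 UMIs in 5 aCTLA4 members and 50 UMIs in 4 control members, of which 1 cell held 42. Of the measured genes of the regulatory list 6 of 8 were lower in aCTLA4 members and none was higher. How much of this is regulatory cells in which Foxp3 was not detected was not tested.

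**Figure D4:**
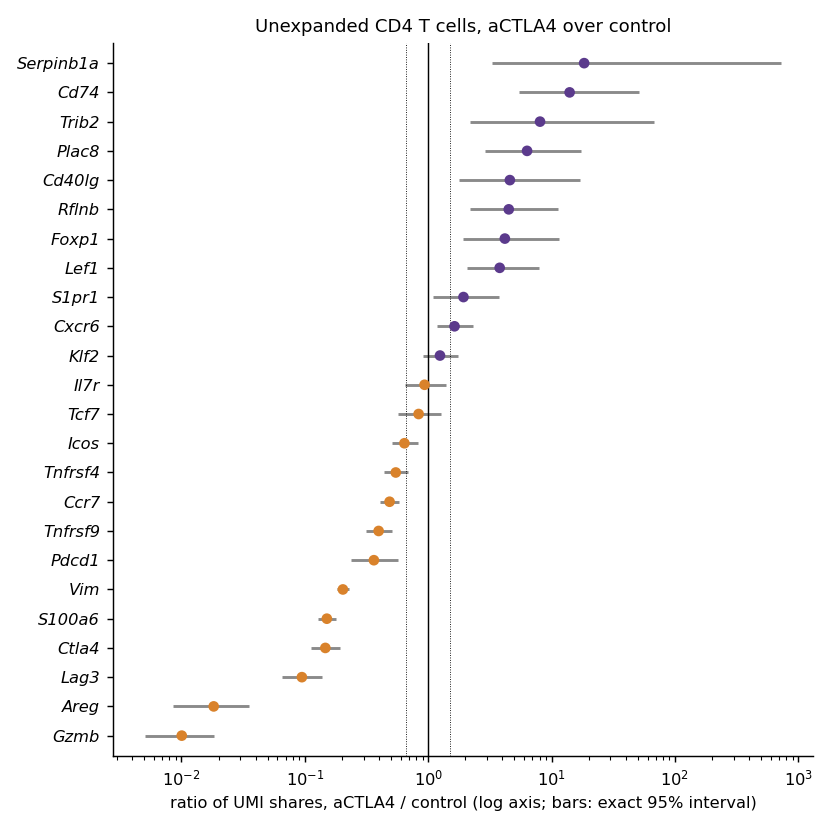
Points give the ratio of UMI shares of aCTLA4 over control members on a log axis, bars give the exact 95% interval, and dotted lines mark 1.5-fold either way. Serpinb1a, Cd74, Trib2 and Lef1 lie right of 1.5-fold, Il7r, Tcf7 and Klf2 lie within the dotted lines, and Lag3, Areg and Gzmb lie farthest left, at 0.0948, 0.0183 and 0.0101.

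Genes of the Cxcr6-positive side were not all lower in aCTLA4 members. Cxcr6 itself had 632 CPM in aCTLA4 and 387 CPM in control members, a ratio of 1.64 (1.19 to 2.31), although it was found in 32.0% and 34.3% of cells. Without the members with an Il2ra or Ikzf2 UMI it had 469.6 CPM in aCTLA4 and 372 CPM in control members, a log2 ratio of 0.33 that lies within 1.5-fold. It was also within 1.5-fold, at 0.55 with the median ratio set to 0 and at 0.54 with free RNA subtracted. Cxcr3 had 76 UMIs in 37 of 294 aCTLA4 members and none in 35 control members, which is at least 2.11-fold higher against 3 counts in the control sum. That bound was within 1.5-fold at 1000 UMIs per cell and, at log2 values of 0.17 and 0.18, with at least 2 Cd4 UMIs and without cells that held markers of other classes or 2 beta chains. Serpinb1a had 221 UMIs in 49 cells and 1 UMI in 1 cell, a ratio of 18.4 (3.26 to 729), and Plac8, a small cysteine-rich protein, had a ratio of 6.33 (2.89 to 17.3). Without the members with an Il2ra or Ikzf2 UMI the log2 ratio was 1.96 for Serpinb1a and 1.11 for Plac8, and that of Serpinb1a was 1.18 at 1000 UMIs per cell. Cd40lg had 178 CPM in aCTLA4 and 38.7 CPM in control members, a ratio of 4.59 (1.77 to 17.0), but its log2 ratio was 0.27 without the members with an Il2ra or Ikzf2 UMI. Of the measured Th1 genes 6 of 9 were higher and 1 was lower, with a median log2 ratio of 1.06. Cd74, the MHC class II chaperone of antigen-presenting cells, had 542 CPM in aCTLA4 and 38.7 CPM in control members, with 255 of 674 UMIs in 1 member, and its log2 ratio was 1.03 without cells that held markers of other classes or 2 beta chains.

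Of the costimulation list 4 of 11 genes were lower in aCTLA4 members and 2, Cd40lg and Cd226, were higher. Icos had 472 CPM in aCTLA4 and 735 CPM in control members, a ratio of 0.642 (0.505 to 0.826), Tnfrsf4 0.546 (0.435 to 0.693), and Tnfrsf9, which encodes 4-1BB, 0.397 (0.311 to 0.512), while Cd28 had 1.03 (0.690 to 1.6). Icos was within 1.5-fold under 7 alternatives, with log2 ratios of -0.26 to -0.51 in place of -0.64. Of the hypoxia and glycolysis list 7 of 15 genes were lower and 1 higher. Pkm, pyruvate kinase, stood at 601 CPM in aCTLA4 and 1595 CPM in control members and at 2491 CPM in the control barcodes without Ptprc. Of 7 measured survival genes 6 were higher and none lower, among them Bcl2a1d with a ratio of 3.23 (1.55 to 8.11). Of 13 interferon genes 6 were higher and 1, Bst2, was lower at 0.511 (0.356 to 0.752).

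The remaining lists held genes of both directions. Of the T cell receptor response list 4 of 10 genes were higher and 1 lower, of the Th2 list 4 of 9 and 3, of the follicular helper list 3 of 10 and 5, of the tissue residency list 3 of 9 and 1, of the cytotoxicity list 4 of 6 and 2, and of the heat stress list 5 of 16 and 3. Their higher Th2 genes include Il4, Il5 and Il13, which few cells carried.

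Crabp1, a marker of the tumour-like cells, and Spp1 and Mt1 were among the lowest ratios. Other cells held the last 2 as well, with Spp1 in 26 and Mt1 in 123 of 145 aCTLA4 macrophages. Crabp1 had no UMI in aCTLA4 members and 62 UMIs in 17 of 35 control members. Spp1, osteopontin, had 21.7 CPM in aCTLA4 and 367 CPM in control members against 6975 CPM in the control barcodes without Ptprc. Mt1, a metallothionein, had 98.8 and 657 CPM, a ratio of 0.150 (0.111 to 0.205), and its log2 ratio turned to 1.59 with free RNA subtracted. These 3 genes give no direction for the T cells.

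Beta chain V genes were the last measure that the rule did not use. The 294 aCTLA4 members spread over 17 V gene assignments, with a median CDR3 of 14 codons (7 to 17). Control members had 14 codons (11 to 16). TRBV13-1 was the most frequent single label in unexpanded cells of the aCTLA4 library, at 12.2%. It was used by 12.0% of expanded cells, where the labels TRBV12-2 with TRBV13-2 (16.2%) and TRBV1 (13.7%) were more frequent. TRBV19 was used by 9.86% (6.71% to 13.9%) of unexpanded and 1.71% (0.208% to 6.04%) of expanded cells, or 3.51% of the 57 expanded clonotypes. TRBV20 was used by 7.48% of unexpanded and 1.71% of expanded cells, and TRBV31 by 9.18% and 4.27%. TRBV13-3 was used by 7.14% of unexpanded and 1.71% of expanded cells, and TRBV2 by 4.08% and 9.40%, the last being 12.3% of the expanded clonotypes. The label of TRBV12-2 with TRBV13-2 together made up 7.14% of unexpanded and 16.2% of expanded cells. TRBV13-2 alone made up 5.78% of unexpanded and no expanded cell. Both labels name TRBV13-2, so neither share alone gives a contrast in its use. Cells of 1 clone share their V gene, so the expanded cells stand for 57 receptors, and intervals over the cells are too narrow for receptors. Of the 57 clonotypes 1.75% used TRBV20, 3.51% TRBV31 and 3.51% TRBV13-3. TRBV19 among members with at least 2 Cd4 UMIs came to 5.69%.

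**Figure D5:**
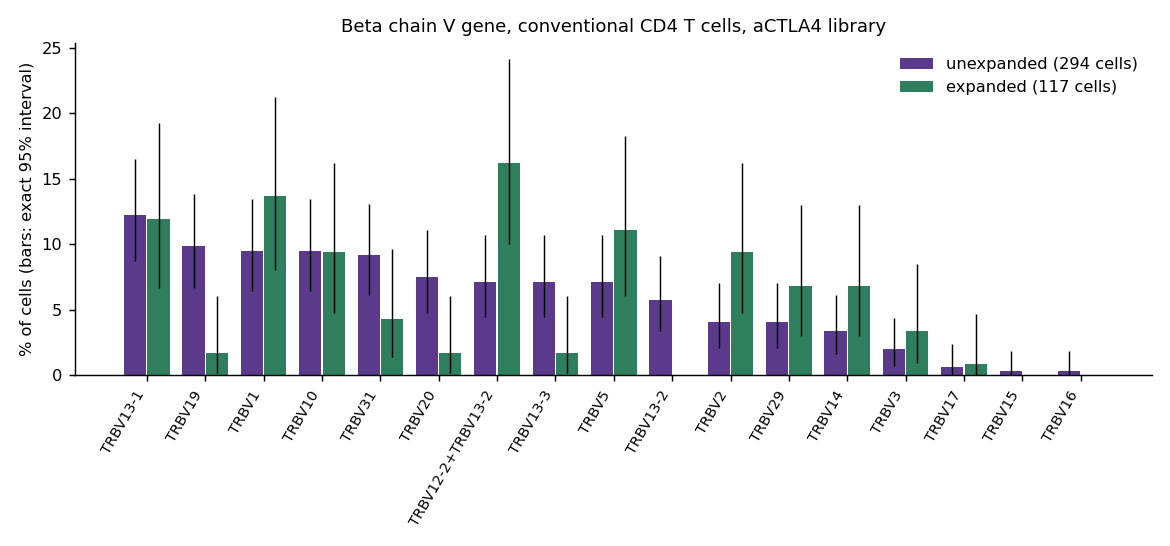
Bars give the percentage of unexpanded (294) and expanded (117) conventional CD4 T cells of the aCTLA4 library that use each beta chain V gene, with exact 95% intervals, ordered by use in unexpanded cells. TRBV19, TRBV20, TRBV13-3 and TRBV31 are more frequent in unexpanded cells. The label of the TRBV12-2 with TRBV13-2 pair and TRBV2 are more frequent in expanded cells, where cells of 1 clone share a gene. The pair and TRBV13-2 alone both name TRBV13-2, and the intervals count cells and not receptors.

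In the control library TRBV5 was the most used, in 7 of 35 members, or 20% (8.44% to 36.9%), against 7.14% (4.48% to 10.7%) of aCTLA4 members. TRBV19 was found in 1 of 35 control members. Split by Cxcr6, TRBV31 was used by 2.13% (0.259% to 7.48%) of Cxcr6-positive and 12.5% (8.26% to 17.9%) of Cxcr6-negative aCTLA4 members, and TRBV13-1 by 11.7% and 12.5%. TRBV31 had the largest difference of the V gene labels split this way, and the intervals of the others overlapped. An alpha chain was found for 75.5% (70.2% to 80.3%) of aCTLA4 members, for 82.9% (66.4% to 93.4%) of control members and for 80.3% (72.0% to 87.1%) of expanded cells. Within the aCTLA4 members it was found for 89.4% (81.3% to 94.8%) of Cxcr6-positive and 69.0% (62.1% to 75.3%) of Cxcr6-negative cells, whose median depths are given above.

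Unexpanded CD4 cells were last set beside the 304 unexpanded CD8 T cells of the aCTLA4 library, at medians of 3509 and 4344 UMIs. Of 5480 genes 19.6% were higher and 4.54% lower past 1.5-fold in CD4 cells (24.1% either way), with a median log2 ratio of 0.22. That median moves the split of calls, and with it set to 0 the numbers were 621 higher and 520 lower in place of 1073 and 249. The naive and central memory genes differed little, with 1 of 17 higher, 3 lower and a median log2 ratio of -0.0023. Lef1 had a ratio of 1.39 (1.21 to 1.59), Tcf7 of 1.002 (0.857 to 1.17) and Satb1, a chromatin organiser of T cells, of 0.998 (0.913 to 1.09). Ccr7 was lower in CD4 cells at 0.615 (0.568 to 0.666), but within 1.5-fold at 1000 UMIs per cell, at a log2 ratio of -0.55. With at least 2 Cd4 UMIs that of Tcf7 was -0.64.

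Effector and helper genes were higher in unexpanded CD4 than in unexpanded CD8 cells. Of the memory and effector list 14 of 17 genes were higher and 2 lower, with a median log2 ratio of 1.51, of the hypoxia and glycolysis list 13 of 15 were higher, and of the tissue residency list 7 of 10. Cxcr6 had 632 CPM in CD4 and 118 CPM in CD8 cells, with UMIs in 32.0% and 12.5% of cells. Cd40lg had 221 UMIs in 70 CD4 cells and 6 UMIs in 3 CD8 cells, a ratio of 43.8 (19.8 to 121). Tnfrsf4 had a ratio of 14.5 (10.7 to 19.9), Ccr8, a chemokine receptor of type 2 and regulatory T cells, 17.6 (7.78 to 49.3), and Gata3 6.45 (4.02 to 10.8). Tnfsf11, the cytokine RANKL, had 63 UMIs in 23 CD4 cells and 1 UMI in CD8 cells, a ratio of 74.8 (13.0 to 3002).

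Prf1, Gzma, Gzmb and Ccl5 were lower in CD4 cells, while the cytotoxicity list as a whole was split. Prf1, perforin, had 2 UMIs in 1 CD4 cell and 80 UMIs in 64 CD8 cells, a ratio of 0.0297 (0.00354 to 0.111). Gzma had a ratio of 0.0559 (0.0322 to 0.0908), Gzmb of 0.0470 (0.0240 to 0.0834) and Ccl5 of 0.112 (0.0923 to 0.134). Of the cytotoxicity list 5 of 14 genes were lower and 4 higher. Outside the lists, Pde2a, a phosphodiesterase, had a ratio of 0.183 (0.126 to 0.258) and Sidt1, a transmembrane protein, 0.269 (0.201 to 0.357). The fibroblast genes Col1a1, Col3a1 and Dcn summed to 62 UMIs in CD4 and 446 UMIs in CD8 cells. No UMI of them was found in 261 of 294 CD4 and 277 of 304 CD8 cells, and 1 CD8 cell held 113 of the 185 Col1a1 UMIs.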

How the data were processed

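The authors deposited raw, unnormalized UMI counts for each gene in each barcode, and for each receptor contig its UMI count, clonotype, V and J genes. Per the submitters' processing notes, Cell Ranger 5.0.0 and the builds mm10 and GRCm38 were used. Which annotation they used is not given in the sources used here. Coordinates are from GENCODE on GRCm38. Treatments came from the sample titles.

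Of 32285 genes, those sharing a symbol were summed, which left 32245. Members, gene lists and marker lists were chosen with earlier results of these data known. Doublets were not called, and leaving out cells with markers of other classes was an alternative. UMIs were summed per set of cells and divided by the total (CPM). Ratios have exact conditional binomial intervals and shares Clopper-Pearson intervals. A gene needed at least 50 UMIs over both sums, and 1.5-fold was the limit for higher or lower. Sums at 0 were bounded with 3 counts. Shares at 1000 UMIs per cell are exact expectations. Clone size was rarefied to the smaller library. Per comparison, named genes are the 8 highest and 8 lowest ratios by the interval bound nearest to 1 (a UMI in 10% and 5 of the cells), 4 genes of each list and a fixed set of T cell genes. Ratios were checked on simulated counts. The aCTLA4 BCR library was used only to count contigs in members and in the other cell classes named below, and for their UMIs. Tools were Python 3.11.15, numpy 2.4.6, scipy 1.17.1, pandas 2.3.3 and matplotlib 3.10.9. Results for some genes are not reported here.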

Additional observations from a re-analysis of the deposited data

Results flagged for a closer look

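B cell receptor contigs, from a library that no comparison above uses, were assembled for 9 of the 294 aCTLA4 members (3.06%), 8 of them with a heavy chain. Of these 9, 2 held 2 or more B cell marker UMIs. The deepest such contig had 24 UMIs, against a median of 12 UMIs over all 1151 B cell receptor contigs. The same contigs were found for 6 of 117 expanded conventional CD4 T cells, 10 of 304 unexpanded CD8 T cells, 7 of 204 expanded CD8 T cells and 519 of 669 B cells. No control B cell receptor library is among the samples of the series.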

How the results depend on the processing

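Each treatment is 1 library, so no replicate could be left out. No paired analysis was possible because each treatment has 1 replicate. Counts of genes past 1.5-fold moved by over 1.5 times under these settings, given as higher and lower. For aCTLA4 over control (1027 and 455) they were 624 and 268 with at least 2 Cd4 UMIs, 641 higher without Il2ra or Ikzf2 cells, 1890 and 2445 with at least 1 UMI per gene, 1890 and 1016 with at least 20, 187 and 125 at 1000 UMIs per cell, and 173 lower without each gene's highest cell, an alternative chosen after seeing the data. For unexpanded over expanded cells (466 and 637) they were 240 and 319 with at least 2 Cd4 UMIs, 1921 and 2367 with at least 1 UMI per gene, 1067 and 1132 with at least 20, 132 and 275 at 1000 UMIs, and 387 lower with totals that leave out mitochondrial, ribosomal and receptor genes. For CD4 over CD8 cells (1073 and 249) they were 3333 and 1388 with at least 1 UMI, 1871 and 531 with at least 20, 628 and 519 with those totals, 621 and 520 with the median set to 0, and 286 and 70 at 1000 UMIs. Fewer or more UMIs entered under the Cd4, UMI minimum and depth settings. With at least 2 Cd4 UMIs the unexpanded share in the aCTLA4 library was 62.8%, TRBV19 use 5.69% of unexpanded cells and TRBV31 use 0% of expanded cells. Direction turned for Mt1 in aCTLA4 over control, to a log2 ratio of 1.59 with free RNA subtracted (also chosen after seeing the data), and for Cst3 in unexpanded over expanded cells, to 1.32 with clones set by beta V, J and CDR3. The cause was not tested. Of the other values, 112 of the main counts and shares and 1146 of the single genes stayed within their limits, and 241 single genes moved beyond them. For 3 combinations no value is given, Il4 in both comparisons that use it without Il2ra or Ikzf2 cells, and Crabp1 with free RNA subtracted.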
